A study of Mus musculus with 12 samples.

Results

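The nuclear genes for subunits of the respiratory chain and the ATP synthase were followed in alveolar macrophages of mice given multiwalled carbon nanotubes (MWCNT). The set held 38 listed symbols: 14 named as subunits of complex I, 4 of complex II, 5 of complex III, cytochrome c itself, 7 of complex IV and 7 of complex V. Members were matched by symbol in the platform annotation, from a list drawn up with earlier results of these data known; the rule itself uses no measured value. Of the 38, 37 had a probe by name and 35 were measured, among 10143 named genes that passed the same detection filter and 19057 named genes on the array. Both groups were C57Bl/6 mice without any transgene named in the labels, sampled on day 60: 6 mice had received 100 µg of MWCNT in 35% surfactant in saline by the oropharyngeal route, and 6 control mice the 35% surfactant in saline alone. Cells came from bronchoalveolar lavage, were described as a macrophage preparation of high purity, and each mouse had its own Illumina Mouse WG-6 v2 BeadChip array.

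Oxidative phosphorylation passes electrons from NADH (through complex I) and from succinate (through complex II) to ubiquinone. Complex III hands them on to cytochrome c, and complex IV passes them from cytochrome c to oxygen. Complexes I, III and IV pump protons across the inner mitochondrial membrane, and complex V, the ATP synthase, makes ATP as the protons flow back. Most subunits are encoded in the nucleus and a few in mitochondrial DNA. Alveolar macrophages are known as cells that depend largely on oxidative metabolism.

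The summed linear intensity of the resident alveolar macrophage markers ran from 81861 to 89292 on MWCNT arrays and from 89594 to 93779 on control arrays, lower on every MWCNT array. The 2 brightest of them were not called: Chil3 averaged a log2 intensity of 14.59 ± 0.06 on MWCNT arrays and 14.67 ± 0.08 on control arrays, and Mrc1, the mannose receptor, 14.21 ± 0.10 and 14.35 ± 0.07 (SD, n = 6 each). A sum of linear intensities weighs the brightest probes most, and the list as a whole was split. Of 15 listed resident alveolar macrophage markers 10 were measured, 3 raised and 2 lowered. Of these 10, 5 lay above 0 and 5 below, with a median log2 change of 0.06. The probes of Siglecf, Fabp4 and Atp6v0d2 did not pass the detection filter. Markers of other cells were raised after MWCNT for 9 of 12 measured genes of monocyte-derived macrophages and 6 of 8 of T and NK cells. The raised genes numbered 2 of 3 for B cells, 3 of 5 for neutrophils, 4 of 6 for dendritic cells, 2 of 8 for epithelial cells and 0 of 2 for erythroid cells. None of these lists had a lowered gene. Among all named genes, 7.48% were raised and 5.3% lowered. The summed linear intensity of the monocyte-derived list ran from 31243 to 41896 on MWCNT arrays and from 21771 to 25256 on control arrays, and that of the epithelial list from 7402 to 28068 and from 2448 to 12990. Sums for T and NK cells ran from 7346 to 10309 and from 6865 to 8479, for B cells from 967 to 1819 and from 750 to 942, for neutrophils from 3835 to 7603 and from 2082 to 3613, for dendritic cells from 1712 to 2773 and from 1493 to 2087, and for erythroid cells from 759 to 12474 and from 122 to 8687, MWCNT first in each pair. The 2 brightest genes of each other list had log2 changes of 0.94 (Gpnmb) and -0.17 (Cd14) for monocyte-derived macrophages, 2.38 (Il7r) and -0.16 (Cd2) for T and NK cells, 1.27 (S100a8) and -0.01 (Ltf) for neutrophils, 1.24 (Itgae) and -0.28 (Batf3) for dendritic cells, 2.23 (Scgb1a1) and 0.40 (Cdh1) for epithelial cells and 1.17 (Hba-a1) and 0.45 (Alas2) for erythroid cells. Of the B cell genes, Cd22 was at 0.05 and Cd79b was detected on 5 MWCNT arrays and 0 control arrays. A gene such as Cd79b passed the detection filter through the MWCNT group alone. The filter thus favours raised genes among the measured markers, and their counts carry that limit. MWCNT arrays 5 and 6 alone carried high signal on probes of the Y-linked genes Ddx3y and Eif2s3y, read as the highest of these probes. The part of cell composition and of sex in the results that follow was not tested, and in RNA from a mixed preparation fewer cells of a type and less RNA per cell cannot be told apart.

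Most subunits differed little between the groups under the scaling used here, though 1 of 9 scalings described further on lowered 10 of them. After MWCNT, 2 of the 35 measured members were raised, Sdhd and Cycs, none was lowered, and 33 did not pass the test, in limma's moderated test with Benjamini-Hochberg adjustment over 13210 features at an adjusted p under 0.05. Among all named genes the same test called 12.8%, with 7.48% raised and 5.3% lowered, so 2 of 35 did not exceed the share called across the array. The median log2 fold change, MWCNT minus control, was 0.03 over the members and -0.02 over all named genes, and 19 members lay above 0 and 16 below. For 33 of the 35 members (94.3%) the 95% confidence interval of the change lay wholly within 0.5 log2 units of no change, against 72.2% of named genes. The median standard error was 0.07 for members and 0.10 for named genes. The members' probes were brighter: 21 of 35 had a mean log2 intensity of 12 and over, against 958 of 10143 named genes. Named genes under 10, at 10 to 12, and at 12 and over had median standard errors of 0.121, 0.083 and 0.074. The shares called there were 14.99%, 8.59% and 7.52%. Members in these ranges had median standard errors of 0.093, 0.083 and 0.065. Shares and standard errors of all named genes, here and below, were not matched for brightness.

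**Figure D1:**
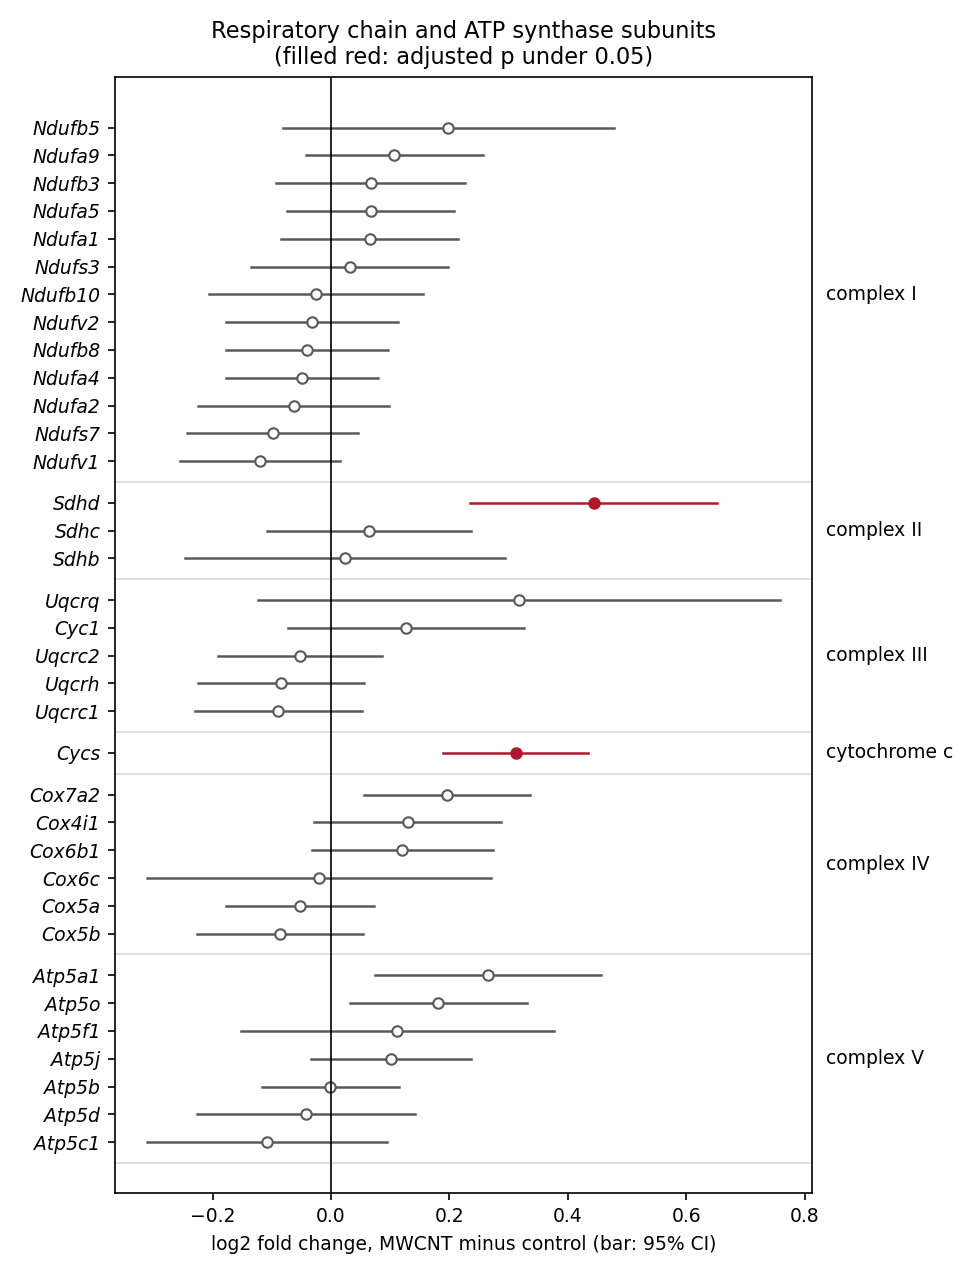
Log2 fold change (horizontal axis, MWCNT minus control) of each of the 35 measured subunits, grouped by complex, with bars for the 95% confidence interval. Sdhd and Cycs, filled in red, are the 2 members with an adjusted p under 0.05; 16 of the other members lie below 0 and none of them passed the test.

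Complex I takes electrons from NADH and was the largest group. All 13 of its measured members failed the test, 6 lay above 0 and 7 below, and their median log2 change was -0.03. Ndufv1, the core subunit that binds NADH and the flavin, had the lowest change of all 35 members: its log2 intensity was lowest at 12.20, median 12.29 and highest at 12.40 on MWCNT arrays, against 12.35, 12.40 and 12.53 on control arrays. The groups overlapped, and the log2 change was -0.12 ± 0.06 (SE; limma adjusted p = 0.235). The other core subunits measured were Ndufs3, Ndufs7 and Ndufv2, at 0.03, -0.10 and -0.03 on the log2 fold change scale. Ndufs1, another core iron-sulfur subunit, had 1 probe, detected on 0 arrays of either group, and was not well above background.

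The accessory subunits of complex I, which surround the catalytic core, showed the same small spread. Ndufa1, Ndufa2, Ndufa5 and Ndufa9 changed by 0.07, -0.06, 0.07 and 0.11 in log2 units without passing the test. The membrane-arm subunits Ndufb3, Ndufb5, Ndufb8 and Ndufb10 were at 0.07, 0.20, -0.04 and -0.03, and Ndufb5, with the highest value of the group, also had a wide standard error of 0.13. Ndufa4 was named as a complex I subunit and was later placed with cytochrome c oxidase. Its change was -0.05 ± 0.06 (SE), so that its place in either group leaves the count of called genes as it is.

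Complex II, succinate dehydrogenase, belongs to both the citric acid cycle and the respiratory chain, and held 1 of the 2 raised members. Sdhd, a membrane anchor subunit that takes part in binding ubiquinone, had a log2 intensity with a lowest value of 8.55, a median of 8.74 and a highest of 8.998 on MWCNT arrays, against 8.17, 8.25 and 8.54 on control arrays. Every MWCNT array was above every control array, though the closest pair, 8.55 on MWCNT array 2 and 8.54 on control array 1, nearly met. The means were 8.75 ± 0.17 on MWCNT arrays and 8.30 ± 0.16 on control arrays (SD, n = 6 each), a log2 change of 0.44 ± 0.10 (SE; 95% interval 0.24 to 0.65; limma adjusted p = 0.00862), or 1.36-fold. Sdhd had a single probe, so no other probe of the gene was available to set beside it. Its call was kept in each of the 12 fits that left out 1 array, with adjusted p between 0.00557 and 0.0228. It ended with the arrays' background signal as a covariate (log2 change 0.49, adjusted p = 0.103).

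The other membrane anchor, Sdhc, and the iron-sulfur subunit Sdhb did not pass. Sdhc averaged 11.39 ± 0.15 on MWCNT arrays and 11.33 ± 0.10 on control arrays, and Sdhb 11.01 ± 0.22 and 10.99 ± 0.24 (SD, n = 6 each). Their log2 changes were 0.06 and 0.02, so the median of complex II, 0.06, was far below the value of Sdhd. The flavoprotein subunit Sdha, which oxidises succinate, had 1 probe detected on 0 arrays and gave no level.

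The promoter of Sdhd is shown because it belongs to a raised member. The sequence covers the 250 bases before the annotated transcription start, chr9:50603850-50604099 on the minus strand (GRCm38.p6, RefSeq), written 5′ to 3′ along the gene. Capitals mark the 1 match found, CCGGAAG, the core of sites bound by ETS factors, read on the opposite strand from 46 to 40 bases upstream of the start:
Sdhd: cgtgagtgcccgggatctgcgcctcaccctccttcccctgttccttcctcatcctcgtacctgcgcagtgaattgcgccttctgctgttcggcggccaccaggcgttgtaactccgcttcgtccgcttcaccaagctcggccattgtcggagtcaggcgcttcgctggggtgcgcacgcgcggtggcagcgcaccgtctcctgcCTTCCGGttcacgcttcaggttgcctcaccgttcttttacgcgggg
Promoters of 28 of the 38 listed genes were matched. The CCGGAAG letters, searched on both strands in the same window, were in those of 5 of the 28 genes (Ndufs3, Sdhd, Uqcrh, Cox6b1 and Atp5j) and in 6.91% of all 32851 promoters of that length. A listed gene was counted if any of its promoters held the letters, while the share of all is per single promoter, so the measures are unlike. Of these 5 genes only Sdhd passed the test in the array data.

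Complex III, the cytochrome bc1 complex, had no called gene among its 5 members, and its median log2 change was -0.05. The core proteins Uqcrc1 and Uqcrc2 and the hinge protein Uqcrh, which helps to dock cytochrome c, were at -0.09, -0.05 and -0.08, with overlapping groups. Cyc1, cytochrome c1, was at 0.13 ± 0.09 (SE). Uqcrq, a small structural subunit, was the least precise member: it ran from 8.77 to 9.61 on MWCNT arrays, against 8.001 to 9.35 on control arrays. Its log2 change of 0.32 ± 0.21 (SE; limma adjusted p = 0.346) was about as high as that of Cycs but with a standard error several times wider.

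Cycs encodes cytochrome c, the soluble carrier between complexes III and IV, which also triggers caspase activation when it leaves the mitochondria. Its log2 intensity was lowest at 11.92, median 11.97 and highest at 12.07 on MWCNT arrays, against 11.60, 11.67 and 11.75 on control arrays. Every MWCNT array was above every control array, with a gap between the groups wider than the standard deviation of either. The means were 11.98 ± 0.05 on MWCNT arrays and 11.66 ± 0.05 on control arrays (SD, n = 6 each), a log2 change of 0.31 ± 0.06 (SE; 95% interval 0.19 to 0.43; limma adjusted p = 0.00282), or 1.24-fold. The call was kept in each of the 12 fits that left out 1 array, with adjusted p between 0.00485 and 0.00856, and ended with background signal as a covariate (0.31, adjusted p = 0.0776).

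The value of Cycs rests on 1 of its 3 probes. The other 2 were dim but detected on all arrays, with log2 changes of -0.09 and 0.05 in the fit of all 19291 kept probes (limma adjusted p = 0.744 and 0.89). With the mean of the kept probes Cycs was at 0.09 (adjusted p = 0.524), and with its second-brightest probe at 0.05 (adjusted p = 0.888), so the call ended under both. Cytochrome c has many processed pseudogenes in the mouse, and which transcripts each probe reads was not analysed here, so the gene's level is uncertain to that extent.

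The promoter of Cycs is shown for the same reason as that of Sdhd. It covers the 250 bases before the start, chr6:50566570-50566819 on the minus strand (GRCm38.p6, RefSeq), 5′ to 3′ along the gene. Capitals mark 2 matches, the cAMP response element TGACGTCA from 169 to 162 bases upstream and CGCATGCG, the core of sites bound by NRF1, from 61 to 54 bases upstream:
Cycs: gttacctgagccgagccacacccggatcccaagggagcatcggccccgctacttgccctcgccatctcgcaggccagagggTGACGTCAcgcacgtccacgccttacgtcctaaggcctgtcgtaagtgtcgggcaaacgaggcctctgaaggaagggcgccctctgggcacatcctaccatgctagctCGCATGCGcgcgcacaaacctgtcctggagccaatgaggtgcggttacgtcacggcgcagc
The letters CGCATGCG were in the promoters of 2 of the 28 matched genes, Cycs and Atp5j, and in 1.55% of all 32851, and TGACGTCA was in that of Cycs alone among the 28 and in 1.55% of all. Neither overlapped the other in Cycs. Atp5j, the other gene with CGCATGCG, was at 0.10 ± 0.06 (log2, SE) and was not called. The YY1 core AAGATGGC was in 1 of the 28 (Atp5j) and 1.56% of all, and TATAAA, the core of the TATA box, in 1 of the 28 (Ndufs7) and 12.4% of all. Genes and promoters were counted as for Sdhd, so these shares too set genes beside single promoters. The matches describe the sequence and say nothing on binding in these cells.

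**Figure D2:**
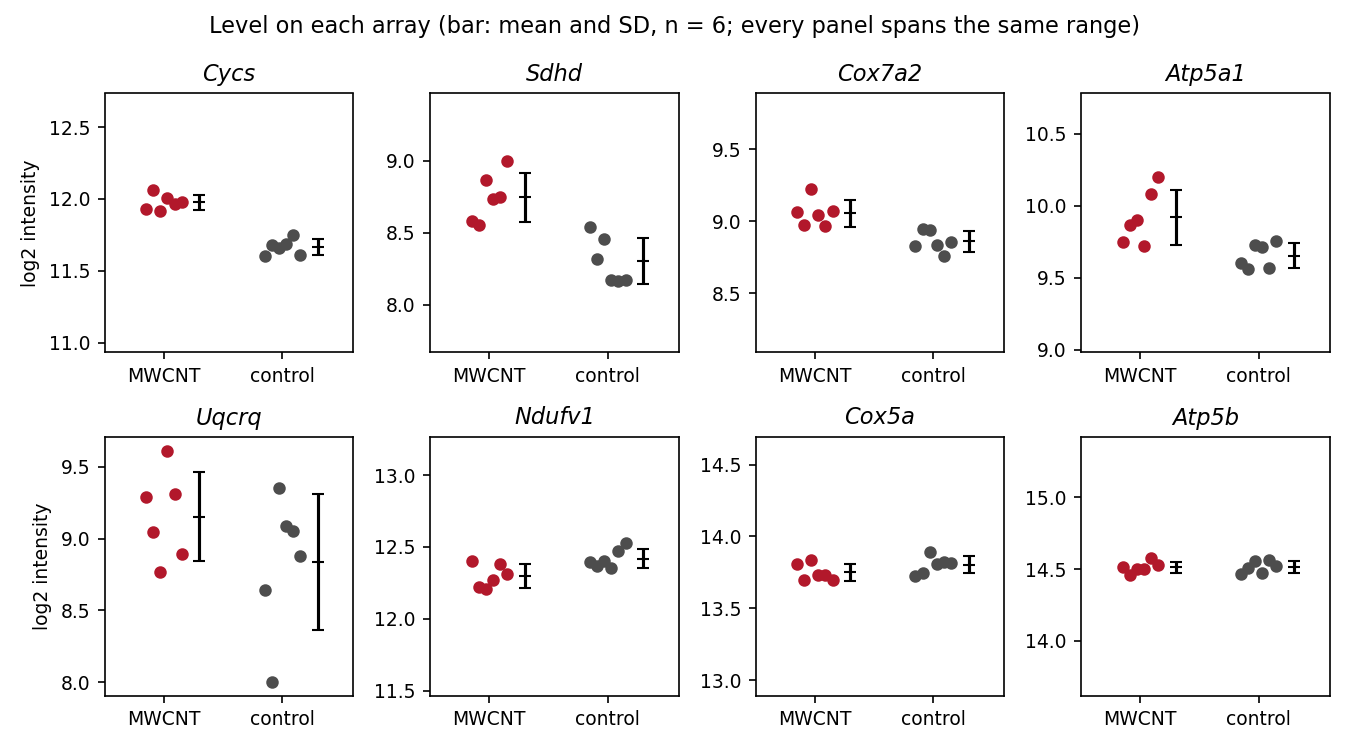
Normalized log2 intensity (vertical axis) of 8 subunits on each array, MWCNT in red left of control in grey, with the mean and SD of 6 arrays; the genes were picked after their values were seen, to show the range of patterns. Cycs, Sdhd and Cox7a2 do not overlap between the groups, Atp5a1 and Ndufv1 overlap in part, Uqcrq varies within each group, and Cox5a and Atp5b overlap widely.

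Complex IV, cytochrome c oxidase, had no called gene among 6 measured members; Cox7c had no probe by that name. Its median log2 change was 0.05. Cox7a2, a small subunit whose heart and muscle counterpart is Cox7a1, came nearest: its log2 intensity was lowest at 8.96, median 9.05 and highest at 9.22 on MWCNT arrays, against 8.75, 8.84 and 8.94 on control arrays. The groups did not overlap, yet the change of 0.20 ± 0.07 (SE) missed the threshold (limma adjusted p = 0.0647). Cox4i1 and Cox6b1 were at 0.13 and 0.12, and Cox5a, Cox5b and Cox6c at -0.05, -0.09 and -0.02, all with overlapping groups.

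Across the whole set, 3 of 35 members (8.57%) had every MWCNT array above every control array, Cycs, Sdhd and Cox7a2, beside 4.41% of named genes. No member had every MWCNT array below every control array, beside 2.59% of named genes. An unadjusted p under 0.05 was reached by 5 members, all of them higher after MWCNT: these 3 with Atp5a1 and Atp5o. Of all named genes, 27.2% reached it.

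Complex V, the ATP synthase, had 7 measured members and no called gene, with a median log2 change of 0.10. Atp5a1, the alpha subunit of the catalytic head, had the highest value: 9.72 to 10.20 with a median of 9.89 on MWCNT arrays, against 9.56 to 9.75 with a median of 9.66 on control arrays. The ranges overlapped at their ends, and the change was 0.27 ± 0.09 (SE, limma adjusted p = 0.0655). That value rests on 1 of 2 kept probes. The other, dimmer but detected on all arrays, was at 0.03 in the fit of all kept probes (limma adjusted p = 0.947). With the mean of the kept probes Atp5a1 was at 0.15 (limma adjusted p = 0.386). Its partner in the same head, the beta subunit Atp5b, which carries the catalytic sites, averaged 14.51 ± 0.04 on MWCNT arrays and 14.51 ± 0.04 on control arrays (SD, n = 6 each), a change of 0.00 with a standard error of 0.05.

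The other ATP synthase members lay on both sides of 0 and below Atp5a1. Atp5o, the stalk protein that links the head to the membrane part, was at 0.18 ± 0.07 (SE; limma adjusted p = 0.104). Atp5j and Atp5f1, both of the peripheral stalk, were at 0.10 and 0.11. The central stalk subunits Atp5c1 and Atp5d were at -0.11 and -0.04. Atp5f1 is named Atp5pb in the annotation used here.

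Averaged over its members on each array and set against the control mean, complex II was the one complex whose groups did not overlap: 0.14 to 0.27 on MWCNT arrays, against -0.09 to 0.08 on control arrays. That mean of 3 genes includes Sdhd, and the other 2 members were near 0. Complex I ran from -0.06 to 0.06 on MWCNT arrays, against -0.04 to 0.03 on control arrays. Complex III ran from -0.08 to 0.12 against -0.12 to 0.12, complex IV from -0.05 to 0.15 against -0.06 to 0.06, and complex V from 0.00 to 0.13 against -0.16 to 0.10, MWCNT first in each. These ranges overlapped. No test was made between complexes, whose subunits share the same 12 arrays.

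**Figure D3:**
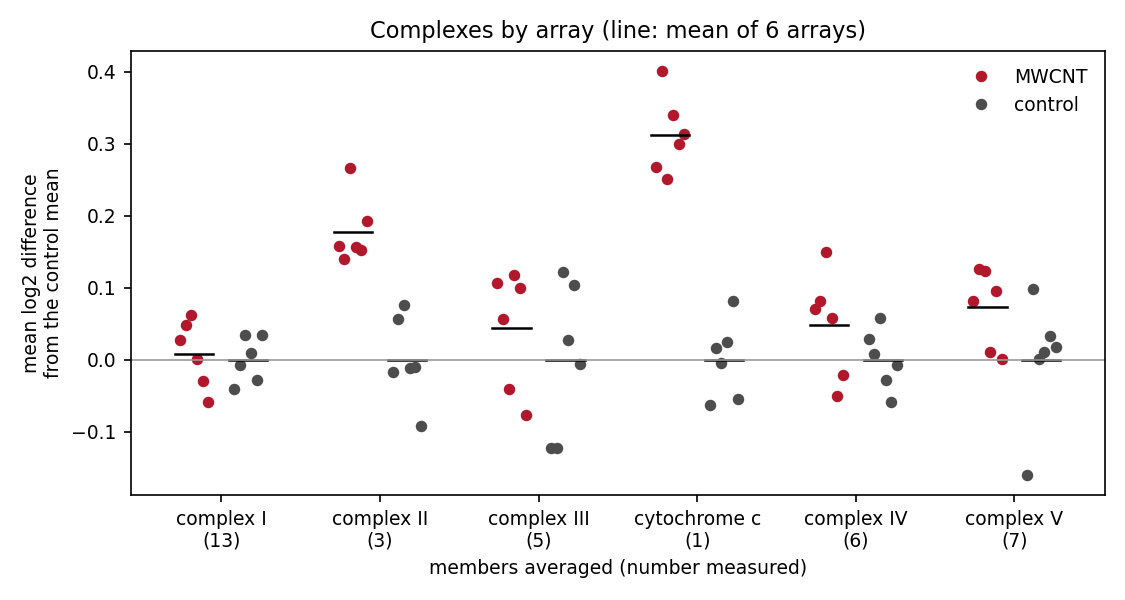
Mean log2 difference from the control mean (vertical axis) over the measured members of each complex, 1 point per array, MWCNT in red left of control in grey, with a line at the mean of 6 arrays. The 6 MWCNT arrays lie above all control arrays for complex II and for cytochrome c, which is 1 gene, and overlap with them for complexes I, III, IV and V.

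The counts moved with the way the arrays were scaled. Quantile normalization after removal of background, the setting used above, gave 2 raised and 0 lowered members with 12.9% of all features called, as did normexp without negative controls (13.3% of features) and cyclic loess (12.6%). Scaling to cytosolic ribosomal protein genes (13.7%), scaling to the median of all probes (14.4%) and quantile normalization without removal of background (13.6%) each gave 4 raised (Sdhd, Cycs, Cox7a2 and Atp5a1) and 0 lowered. The authors' own processed values (12.4%) gave 5 raised, with Atp5o as the fifth, and 0 lowered. Without any scaling between arrays (20.8%) 6 were raised, among them Ndufb5 and Uqcrq, and 0 lowered.

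One scaling turned the picture. With each array set to the median of the kept probes, 10 members were lowered (Ndufa4, Ndufb8, Ndufs7, Ndufv1, Uqcrc1, Uqcrc2, Uqcrh, Cox5a, Cox5b and Atp5b) and 1, Sdhd, was raised; Cycs was then at 0.17 (limma adjusted p = 0.0774). It called 20.2% of all features, with 679 named genes raised and 1390 lowered. That scaling put the median of all features at -0.10 and the median of the members at -0.10 as well. Without scaling between arrays the median of all features was 0.24 and that of the members 0.25. The members' median minus that of all features was 0.05 under the quantile setting and 0.00 under the 4 settings that shift whole arrays by a constant. A constant shift moves every feature alike, so under those 4 settings this gap was the same by construction. So was the number of members above the median of all features, 18 of the 35. Under the quantile setting 21 of the 35 lay above that median. Sdhd was called raised under all 9 scalings and Cycs under 8. The log2 change of Sdhd ran as low as 0.25 in the authors' processed values and as high as 0.76 without scaling, and that of Cycs was 0.51 without scaling.

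**Figure D4:**
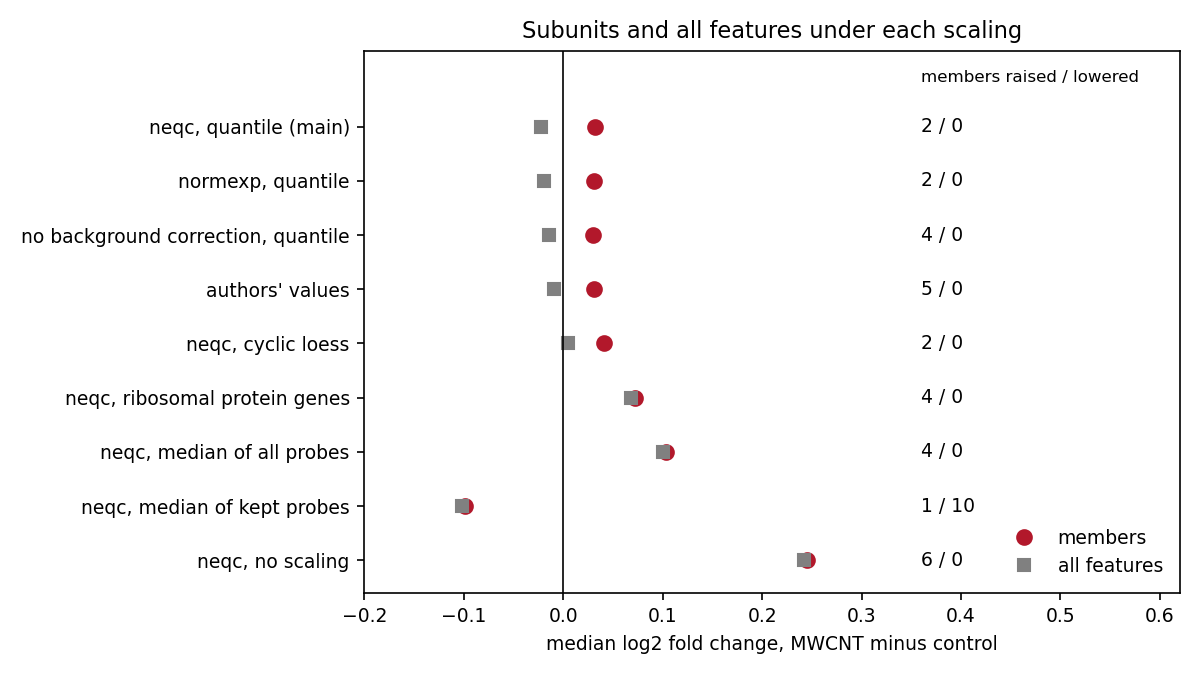
Median log2 fold change (horizontal axis, MWCNT minus control) of the 35 members (red circles) and of all 13210 features (grey squares) under 9 ways of scaling the arrays, with the number of members raised and lowered at the right. The medians lie between -0.10 and 0.25, and settings that shift whole arrays by a constant move both alike by construction. Lowered members appear only with scaling to the kept probes.

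The arrays of the groups differed in background. Background signal was taken on each array as the median signal of probes with a detection p near the middle of its range. It averaged 154 ± 9.7 on MWCNT arrays and 135 ± 6.2 on control arrays (SD, n = 6 each, two-sided exact permutation p = 0.00433, adjusted 0.00866 over 4 array measures). The share of probes detected was 39.8% ± 0.59 and 38.5% ± 0.47 (SD, exact permutation p = 0.00433). With background signal as a covariate no member was called, Sdhd and Cycs included, while 471 of all features (3.57%) were called in place of 1700. The log2 changes of Sdhd and Cycs were 0.49 and 0.31 with the covariate, and 0.44 and 0.31 without it. Background signal ran from 140 to 167 on MWCNT arrays and from 129 to 145 on control arrays. Covariate and group therefore cannot be told apart well in this fit, and the part of background was not tested. Without the 2 arrays with Y-linked signal both genes were still called. The members' median was then 0.08 and that of all features -0.03. Of the 35 members 26 lay above the median of all features, against 21 with all arrays. The calls of ND4L, Cox14, Mrps18c and Hspd1, of the gene lists that follow, ended without those 2 arrays (adjusted p from 0.103 to 0.15).

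The remaining genes of the pathway gave little more. Of 43 further subunits listed, among them Ndufb4, Ndufb9 and Ndufb11 of complex I, Atp5g3, a subunit of the membrane ring of the ATP synthase, and Atpif1, its inhibitor, 36 were measured, 0 were raised and 0 lowered, and their median log2 change was 0.03. The lowest adjusted p was that of Ndufb9, at 0.24 ± 0.08 (SE; adjusted p = 0.0674). Ndufb4, Ndufb11 and Atpif1 were at 0.33, 0.35 and 0.16, with adjusted p of 0.095, 0.0987 and 0.131. Atp5g3, the brightest, was at 0.02. Together with the members, 71 of 81 listed nuclear subunits were measured and 2 were raised.

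Isoforms restricted to other tissues held the largest log2 change among the measured genes of the members and the 7 other mitochondrial lists. Cox6a2, the heart and skeletal muscle isoform of a complex IV subunit, had a log2 intensity lowest at 6.41, median 7.11 and highest at 8.13 on MWCNT arrays, against 5.33, 5.75 and 6.26 on control arrays. The groups did not overlap, the probe was dim, and it was detected on 6 MWCNT and 5 control arrays. The change was 1.42 ± 0.26 (SE; limma adjusted p = 0.00291). It was 0.79 with background signal as a covariate (adjusted p = 0.242) and 0.35 in the authors' processed values (adjusted p = 0.0198). Cox6b2, a testis isoform, and Cox7a1, a heart and muscle isoform, were at -0.06 and -0.16 and did not pass; of 9 isoforms listed 3 were measured and 1 was raised.

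Of 13 subunits encoded in mitochondrial DNA, 7 were measured, 1 was raised and 0 were lowered. ND4L, a core subunit of complex I, averaged 8.12 ± 0.48 on MWCNT arrays and 7.45 ± 0.30 on control arrays (SD, n = 6 each), a log2 change of 0.67 ± 0.21 (SE; limma adjusted p = 0.0468), with overlapping groups. Leaving out any 1 of MWCNT arrays 3, 5 and 6 or control arrays 1 to 5 ended that call (adjusted p between 0.0679 and 0.0914). The bright probes of ND4, CYTB and ATP6 were at 0.06, -0.07 and 0.20 and did not pass. ND4 and ND4L are known to be made as 1 joint transcript, yet the probes annotated to them gave unlike values; which sequences each reads was not analysed here. The change of ND4L was 0.30 in the authors' processed values (adjusted p = 0.0686).

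Among 37 measured assembly factors, which build the complexes, 0 were raised and 1 was lowered. Cox14, a factor of complex IV assembly, was at -0.24 ± 0.07 (SE; limma adjusted p = 0.031), and the call ended without any 1 of 9 of the 12 arrays, namely all but MWCNT arrays 3 and 4 and control array 4 (adjusted p between 0.0508 and 0.0709). Ndufaf2, Uqcc2 and Pet100 were at 0.28, 0.19 and 0.20, and the brightest, the copper chaperone Cox17, at -0.09, none of them past the test. Of 13 measured regulators of mitochondrial biogenesis and mitochondrial DNA upkeep, 0 were raised and 0 lowered, with a median of -0.10: the transcription factors Nrf1, Tfam and Esrra were at -0.14, -0.15 and -0.12, the coactivator Pprc1 at -0.17 and the helicase Twnk at -0.22, with adjusted p from 0.192 to 0.391.

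Of 69 measured proteins of the mitochondrial ribosome, which translates the subunits encoded in mitochondrial DNA, 1 was raised and 0 were lowered, with a median of 0.00. Mrps18c was at 0.29 ± 0.08 (SE; limma adjusted p = 0.0267), and the call ended without any 1 of MWCNT arrays 3, 5 and 6 or control arrays 2 and 6 (adjusted p between 0.0528 and 0.0582). Mrpl16 was at 0.20 and the bright Mrpl33 and Mrpl38 at -0.18 and -0.19, none past the test. Of 15 measured membrane proteins, carriers and chaperones, 1 was raised and 0 were lowered. Hspd1, the mitochondrial chaperonin, averaged 11.71 ± 0.08 on MWCNT arrays and 11.49 ± 0.09 on control arrays (SD, n = 6 each), a change of 0.22 ± 0.07 (SE; limma adjusted p = 0.0417), which ended without any 1 of 9 arrays, namely all but MWCNT array 2 and control arrays 4 and 5 (adjusted p between 0.052 and 0.0813), or with its second-brightest probe (0.05, adjusted p = 0.902). Mfn2, which fuses outer membranes, the channel Vdac2, the import pore Tomm40 and the ADP/ATP carrier Slc25a5 were at 0.19, 0.25, -0.24 and -0.03 without passing.

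**Figure D5:**
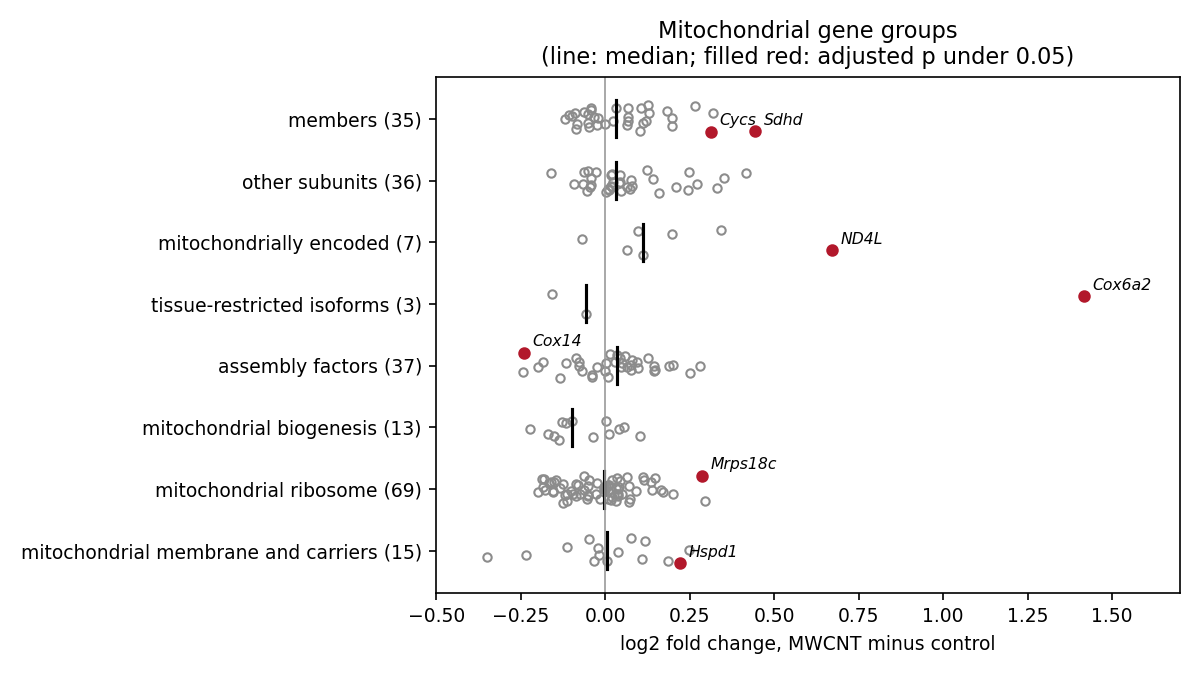
Log2 fold change (horizontal axis, MWCNT minus control) of each measured gene of the members and of 7 other mitochondrial gene groups, with the number measured in brackets and a line at the group's median. Filled red points with names are the 7 genes with an adjusted p under 0.05, 6 higher and 1, Cox14, lower; Cox6a2, a dim probe, lies farthest from 0.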

How the data were processed

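Each scanner file column of the deposited table is, per the file headers, either a signal or a detection p-value of one array, over 45281 probes and 12 arrays. The deposited signal is a linear intensity that was not normalized between arrays, and the deposited p-value sets a probe against negative-control beads. The authors' matrix of processed intensity values, linear and with a lowest value of 200.3, served as an alternative; the submitters' processing notes name lumi for it, and its version is not given in the sources used here. All columns of per-sample values were used.

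The limma package (3.58.1, with statmod 1.5.0, under R 4.3.3) was used throughout. Background was removed with neqc at an offset of 16, followed by quantile normalization and log2. Probes stayed in if their detection p was under 0.05 on 3 or more arrays (19291), and a gene was read from its brightest such probe, for 13210 features. The 2 groups were fitted with lmFit and eBayes, without covariates, and p-values were two-sided and Benjamini-Hochberg adjusted. Probes differ in efficiency, so brightness orders probes and not the amounts of their transcripts. The number of arrays limits the precision. Each array was a separate mouse per the labels. The fit and the adjustment were tested on simulated data, and the background, normalization, filter and probe steps were not. Python 3.11.15 and matplotlib 3.10.9 drew the figures.

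The members and gene lists were chosen with earlier results of these data known. All members are named, with, from each other pathway list, the brightest gene not called and the 4 genes of lowest adjusted p, and the 2 brightest genes of each marker list. Promoter sequences are those of RefSeq on GRCm38.p6. Alternatives covered background correction, scaling, filter, probe rule, variance model, array weights, replicate block, background signal and arrays left out.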

Additional observations from a re-analysis of the deposited data

Results flagged for a closer look

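In 78 groups of 6 values examined, 70 of the members' levels and 8 of array measures, 3 had a lowest value standing apart from the other 5 by Dixon's criterion, which chance meets in about 1 in 20 groups. Ndufs3 was at a log2 intensity of 11.32 on control array 1, with the other control arrays between 11.64 and 11.66. Cyc1 was at 10.53 on the same array, with the others between 10.94 and 11.12. Cox5b was at 13.54 on control array 4, with the others between 13.72 and 13.79. None of the 3 genes was called with or without these arrays.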

How the results depend on the processing

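Of 1015 values of members under 29 alternatives, 981 stayed on the same side of the threshold, 5 lost a call, 29 gained one and none of the called ones reversed; 73 uncalled values differed in sign. The replicate numbers were not taken to pair the arrays, since the deviations of same-numbered arrays correlated at over 0.1 for 4 of the 6 numbers but at -0.01 and -0.18 for the others. The fit with the replicate number as a block gave 2 raised and 0 lowered members, 1488 called features in all, and 2 raised and 0 lowered genes of the other pathway lists, against 4 and 1 without it; Cox14, Hspd1 and Mrps18c then missed the threshold (adjusted p = 0.0761, 0.0703 and 0.0686).

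Called features numbered 2669 with scaling to kept probes, 2743 without scaling, 1111 with probes detected on all 12 arrays and 471 with the background covariate, against 1700. Raised members numbered 4 without background correction, 4 with scaling to all probes, 4 with ribosomal genes, 6 without scaling, 5 with the authors' values, 4 with trend and robust variance, 1 with scaling to kept probes (10 lowered) and 0 with the background covariate. Genes of the other lists numbered 8 raised and 3 lowered without background correction, 12 and 0 with scaling to all probes, 19 lowered with kept probes, 7 raised with cyclic loess, 11 and 0 with ribosomal genes, 25 and 0 without scaling, 10 and 3 with the authors' values, 3 lowered with the mean of kept probes and 3 with the second-brightest, 2 lowered with trend and robust variance, 2 and 4 with the background covariate, and 2 and 0 without the Y-linked arrays.

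The members' median was 0.104 with scaling to all probes, -0.0986 with kept probes, 0.245 without scaling and 0.0768 without the Y-linked arrays. Complex I had 0.0866, -0.116, 0.229 and 0.0305 under these, 0.0547 with ribosomal genes, and 0.0314 with the mean of the kept probes as with the second-brightest. With scaling to kept probes, complexes II, III, IV and V had -0.0683, -0.239, -0.13 and -0.0846, and without scaling 0.276, 0.106, 0.214 and 0.259. Cytochrome c had 0.367 with all probes, 0.165 with kept probes, 0.509 without scaling, 0.0901 with the mean of probes and 0.0477 with the second-brightest. Complex V had 0.0251 with the second-brightest probe, complex IV 0.116 without the Y-linked arrays, and complex III 0.0631 with the background covariate. The cause of these shifts was not tested.

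Leaving out 1 array at a time gave 1372 to 1684 called features, 2 to 3 raised members (Atp5a1 joined without MWCNT array 4, adjusted p = 0.043) and 0 lowered, and 1 to 5 raised and 0 to 1 lowered genes of the other lists. Medians then ran from 0.0013 to 0.0611 for the members, -0.0336 to 0.0128 for complex I, 0.0367 to 0.106 for complex II, -0.0695 to -0.0306 for complex III, 0.294 to 0.328 for cytochrome c, 0.025 to 0.0819 for complex IV and 0.0235 (without control array 1) to 0.134 for complex V. Signal close to background limits Ndufs1 and Sdha, which gave no level.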

Other observations

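The members' changes differed with the brightness of their probes, which is not a measure of transcript amount. Of the 6 members with a mean log2 intensity under 10, 5 lay above 0, with a median log2 change of 0.23. Of the 8 between 10 and 12, 7 lay above 0, with a median of 0.07. Of the 21 at 12 and over, 7 lay above 0, with a median of -0.04. The medians of all named genes in the same ranges were -0.02, -0.01 and -0.02. Spearman's rho between level and change was -0.47 over the 35 members, which share the same 12 arrays, and the ranges were chosen after the values were seen, so this is a description without a test.

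Members with more than 1 kept probe gave mostly like directions. Of 13 further kept probes of 11 genes, 2 had the sign opposite to the probe used. They were a dim probe of Cycs, at -0.09, and the second probe of Ndufb10. The second Ndufb10 probe was at 0.23 ± 0.09 (SE, limma adjusted p = 0.108), against -0.03 for the probe used. Of the 13 probes, 1 was raised and 0 were lowered. The raised one was a dim probe of Ndufa5, a matrix-arm subunit of complex I, at 7.58 ± 0.32 on MWCNT arrays and 7.02 ± 0.29 on control arrays (SD, n = 6 each), a log2 change of 0.56 ± 0.16 (SE; limma adjusted p = 0.0384). The bright probe of the same gene, at 12.17 ± 0.08 and 12.11 ± 0.08, changed by 0.07 and was not called. With the mean of the kept probes, or with the second-brightest, Ndufa5 joined Sdhd as a raised member in place of Cycs. Which transcripts the dim probe reads was not analysed here.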
